A study of Mus musculus with 8 samples.

Results

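The heartbeat is adjusted by 2 opposing branches of the autonomic nervous system that meet at cyclic AMP, and the genes described here are 9 that carry those signals inside the cell: the receptors Adrb1, Chrm2 and Adora1, the G protein alpha subunits Gnai2 and Gnao1, the G protein regulators Rgs4 and Rgs6, and the adenylyl cyclases Adcy5 and Adcy6. They were taken by gene name from the 27729 gene names on the array, and all of their non-control probes were used, 16 of 41174. Each probe was 60 bases long and was printed as 1 spot per array. Of the 9 genes, 8 were measured well enough to be tested, and Chrm2 was not.

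As background, noradrenaline from sympathetic nerves acts on the beta-1 receptor, which raises cyclic AMP through the stimulatory G protein and adenylyl cyclase, and so speeds pacemaking and conduction through protein kinase A and the pacemaker channels. Acetylcholine from the vagus acts on the M2 muscarinic receptor, and adenosine on the A1 receptor. Both couple to inhibitory G proteins, which restrain adenylyl cyclase and open an inward rectifier potassium channel. RGS proteins end the signal by speeding the hydrolysis of GTP on the alpha subunit.

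The samples were cells of mouse embryonic hearts at stage E10.5 that carried the minK-GFP transgene, whose green fluorescence reports the potassium channel subunit gene minK (Kcne1). Fluorescence-activated sorting of the dissociated cells gave a GFP-high group, labelled conduction system, and a GFP-low group, labelled chamber myocardium, with 4 biological replicates of each. Both groups carried the transgene and received no treatment that the labels name; strain, sex and the number of embryos per sample are not given there. The groups are thus defined by how bright the reporter was, and the p-values measure the spread between samples whose litters and pools are unknown.

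From each sample 5 ng of total RNA was amplified, 2 ug of product was labelled, and 1 array was hybridised. From 36.3% (in GFP-high replicate 3) up to 50.7% (in GFP-low replicate 2) of each array's 43379 non-control spots were well above background. Both probes of Kcne1 were higher on each GFP-high array than on every GFP-low array, by 1.29 and 2.83 on the log2 scale. In the limma fit of all probes described below, the first did not pass (adjusted p = 0.225) and the second did (adjusted p = 0.0311). All 8 heart muscle markers examined were measured in both groups. A level below is log2 of the processed signal relative to the array's 75th percentile, so that 0 is that percentile, and a difference is the mean level of GFP-high minus that of GFP-low; levels of different probes are not comparable with each other.

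Probes of 1 gene did not always give the same result, so the probes in coding sequence of the genes concerned are printed here from the array files, 5′ to 3′ in the sense of the messenger RNA. The Adrb1 and Chrm2 probes are shown because the one gave a signal on every array and the other on none. The Adora1 and Rgs4 probes are shown because they differed from probes nearer the 3′ end of the same genes. The Gnao1 pair is specific by its annotation to transcript variant B, and the Adcy5 line joins 2 probes that abut on the transcript, with the second in capitals. All positions are on build mm9.
Adrb1, chr19:56797242-56797301, plus strand: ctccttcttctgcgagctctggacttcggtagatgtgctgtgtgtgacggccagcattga
Chrm2, chr6:36473213-36473272, plus strand: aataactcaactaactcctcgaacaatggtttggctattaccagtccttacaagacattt
Adora1, chr1:136099564-136099623, minus strand: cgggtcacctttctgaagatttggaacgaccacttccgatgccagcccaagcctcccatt
Rgs4, chr1:171673944-171674003, minus strand: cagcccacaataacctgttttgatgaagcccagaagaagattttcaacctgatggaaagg
Gnao1 variant B, first probe, chr8:96477947-96478006, plus strand: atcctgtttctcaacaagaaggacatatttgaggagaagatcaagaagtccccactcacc
Gnao1 variant B, second probe, chr8:96480068-96480127, plus strand: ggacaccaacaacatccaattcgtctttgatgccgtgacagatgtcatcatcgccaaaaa
Adcy5, chr16:35299663-35302391, plus strand: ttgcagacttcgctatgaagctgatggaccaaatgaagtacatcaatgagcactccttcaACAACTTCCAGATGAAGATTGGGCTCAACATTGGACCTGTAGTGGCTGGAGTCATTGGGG

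The comparison asks which of these signalling genes differ in RNA level between the brightly and the dimly fluorescent heart cells. None of the 8 tested members passed the test, a limma fit over 12875 genes with Benjamini-Hochberg adjusted p under 0.05. In that fit 18 genes were called, 0.14% of those tested, 9 of them higher and 9 lower in GFP-high. At an unadjusted p under 0.05, Adora1 and Adcy5 were reached among the 8, against 14.3% of all tested genes. Differences were positive for 7 of the 8 and negative for Rgs4, where 62.1% of all tested genes had a positive difference. The median difference was 0.44 over the 8 members and 0.16 over all tested genes. Adora1 was the 1 member whose arrays did not overlap between the groups, which was so for 8.95% of all tested genes. When every probe was tested as its own row, none of the 14 tested member probes passed, against 0.0379% of 18482 probes. With 4 arrays per group, even large differences were often out of reach in a simulation. In it 200 of the 12875 genes were changed, and noise was drawn independently for each gene and array. The fit recovered 2% of the genes given a log2 change of 1. It recovered 40% of the genes given a log2 change of 2. Recovery depends on the share of genes changed, so 2% and 40% are not the power of the real comparison. Since these are bulk samples, fewer cells of a type and less RNA per cell cannot be told apart.

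**Figure D1:**
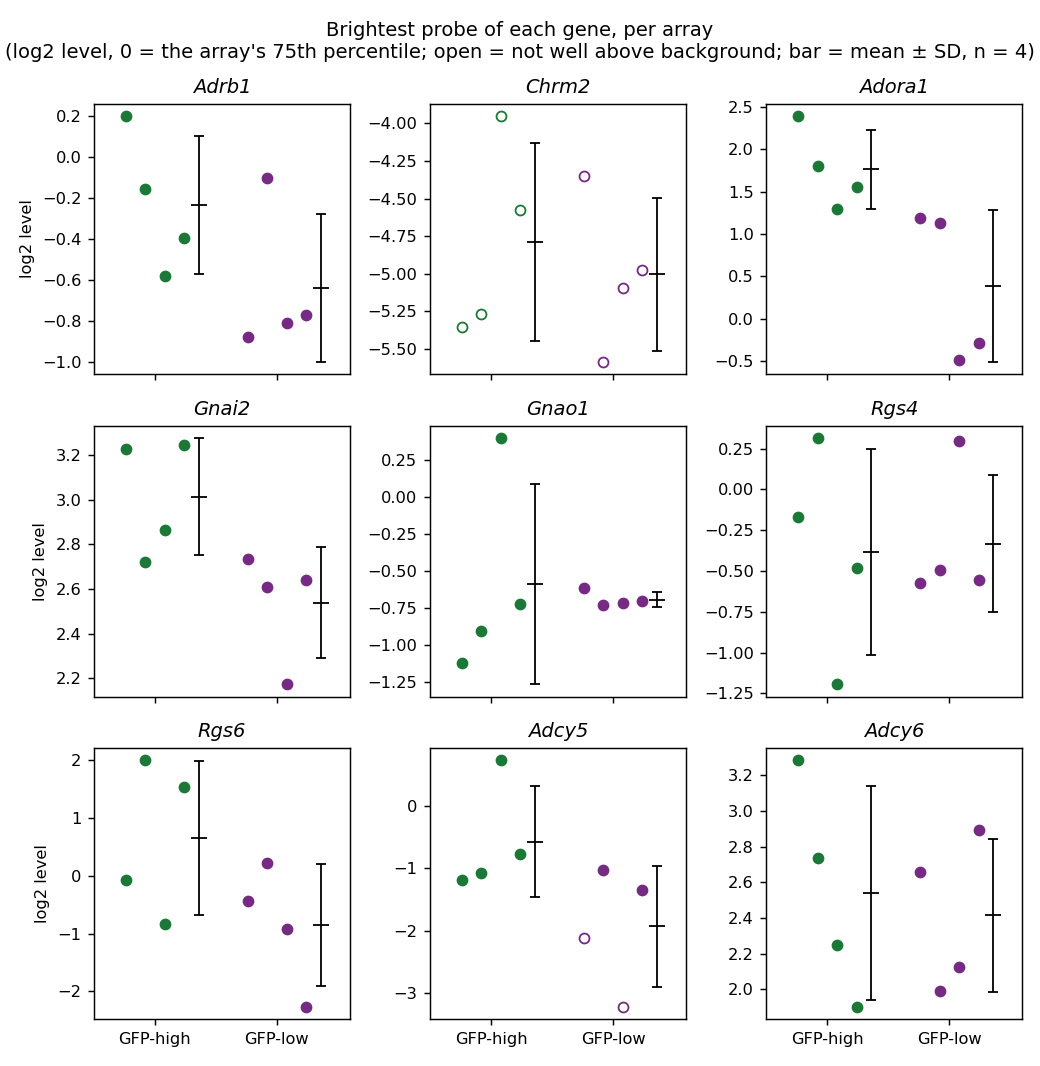
Level of the brightest probe of each member on each array (log2, with 0 at the array's 75th percentile, own scale per panel); the bar beside each group is the mean ± SD of 4 arrays, and open symbols are spots not well above background. All 8 spots of Chrm2 are open, and in Adora1 alone the GFP-high arrays, 1.30 to 2.40, lie apart from the GFP-low arrays, -0.49 to 1.19.

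Among the receptors, the one for adenosine showed the clearest separation. Adora1, the A1 receptor gene, had levels of 2.40, 1.81, 1.30 and 1.55 on GFP-high replicates 1 to 4 and of 1.19, 1.13, -0.49 and -0.29 on GFP-low replicates 1 to 4, at the probe at chr1:136098259-136098318. Every GFP-high array was above every GFP-low array, although the lowest GFP-high array, replicate 3, was close to the highest GFP-low array, replicate 1. The difference was 1.38 ± 0.47 (SE, n = 4 per group, 95% interval 0.31 to 2.45), which is 2.61-fold and did not pass the test (limma adjusted p = 0.265). It was 0.95 within slide 1 and 1.82 within slide 2, each slide holding 2 arrays of both groups.

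The other probes of Adora1 gave a mixed picture. The one nearest the 3′ end, at chr1:136095981-136096040, read 2.39, 0.75, 1.52 and 0.11 in GFP-high and 0.22, -0.18, -0.62 and 0.25 in GFP-low. There 3 of the 4 GFP-high arrays were above all GFP-low arrays and the fourth lay among them, with a difference of 1.27 ± 0.49 (limma adjusted p = 0.317). The coding probe printed above read 0.19, -1.46, -2.05 and -1.17 in GFP-high and -2.15, -0.58, -1.90 and -0.60 in GFP-low, and it was well above background on 3 arrays of each group. Its groups overlapped fully, with a difference of 0.19 ± 0.57 (limma adjusted p = 0.897). The separation of the groups was thus seen at the brightest of 3 probes.

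Genes with the pattern over the arrays most like that of Adora1 were sought among the other 12874 tested genes. The closest by Pearson correlation over the 8 arrays were Taf8 (r = 0.995), a subunit of the general transcription factor TFIID, Mcm10 (r = 0.978), a DNA replication factor, and Fam183b (r = 0.975). Their differences were 0.79, 0.66 and 1.42, and none passed the test. The correlations describe these 8 arrays, which all genes share.

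Adrb1, the beta-1 adrenergic receptor and main target of noradrenaline in heart muscle, was measured on every array but did not separate the groups. Its coding probe read 0.20, -0.16, -0.58 and -0.39 in GFP-high and -0.88, -0.10, -0.81 and -0.77 in GFP-low. GFP-low replicate 2 stood with the GFP-high arrays, and the other 3 GFP-low arrays were below all of them. The difference was 0.41 ± 0.29 (95% interval -0.24 to 1.06; limma adjusted p = 0.523), with 0.51 within slide 1 and 0.30 within slide 2. It was 0.26 without GFP-high replicate 1, and 0.16 when averaged with a second probe at chr19:56799215-56799274, whose own difference was -0.10 ± 0.69 (limma adjusted p = 0.963).

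Chrm2, the M2 muscarinic receptor through which the vagus slows the adult heart, gave no signal well above background at its single probe. Its values ran from -5.36 to -3.95 in GFP-high and from -5.59 to -4.35 in GFP-low, all below the lowest level that counted as well above background on any array, which was between -3.40 and -1.77. No difference is given for it. The other muscarinic receptor genes, Chrm1, Chrm3, Chrm4 and Chrm5, could not be tested either, and only Chrm1 was above background anywhere, on 1 array of GFP-high. The probe of Chrm2 covers bases 3 to 62 of its transcript model, near the 5′ end, and the part that this position plays was not tested.

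**Figure D2:**
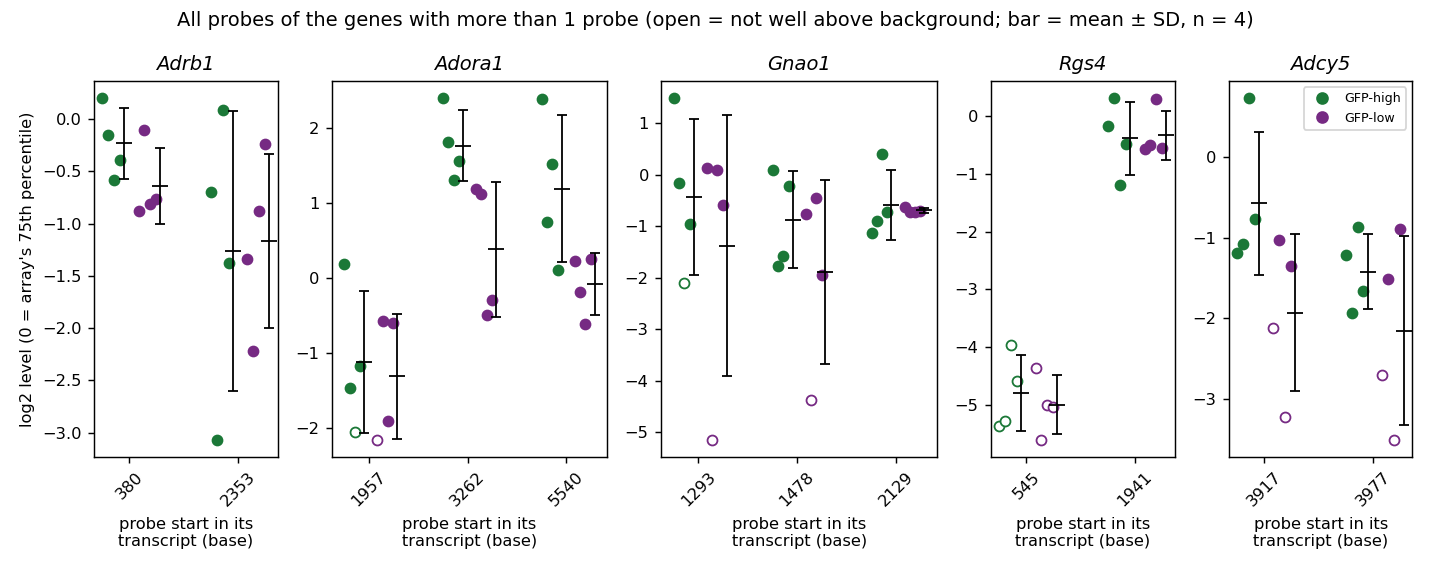
Level of each probe of the members that have more than 1 probe, plotted by its start on the transcript (bases) against log2 level per array. In Adora1 the probes at 3262 and 5540 have differences of 1.38 and 1.27 and the coding probe at 1957 has 0.19; the Rgs4 coding probe at 545 is above background on no array, and its probe at 1941 is above background on all 8.

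The inhibitory G protein alpha subunits that relay the A1 and M2 signals were measured in both groups, and neither passed the test. Gnai2, a widely expressed inhibitory subunit, read 3.23, 2.72, 2.87 and 3.25 in GFP-high and 2.73, 2.61, 2.17 and 2.64 in GFP-low (probe at chr9:107517955-107518014). The groups overlapped by a single pair of arrays, replicate 2 of GFP-high and replicate 1 of GFP-low. The difference was 0.48 ± 0.25 (95% interval -0.09 to 1.04; limma adjusted p = 0.407), positive on both slides at 0.30 and 0.65.

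Gnao1, the alpha-o subunit best known from neurons, was measured by probes for both of its annotated transcript variants. The variant A probe, at chr8:96492470-96492529, read -1.12, -0.90, 0.40 and -0.73 in GFP-high and stayed between -0.73 and -0.62 in GFP-low. GFP-high replicate 3 was above all other arrays and the remaining GFP-high arrays lay at the bottom of the GFP-low range or below it, and the difference of 0.10 ± 0.35 (limma adjusted p = 0.902) turned to -0.22 without that array. It was -0.34 within slide 1 and 0.55 within slide 2.

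The variant B probes printed above were more scattered. The first read 1.49, -0.15, -2.10 and -0.96 in GFP-high and 0.14, -5.15, 0.09 and -0.59 in GFP-low, with GFP-high replicate 3 and GFP-low replicate 2 not well above background. Its difference was 0.95 ± 1.25 (limma adjusted p = 0.746), made up of 3.18 on slide 1 and -1.28 on slide 2. The second had 1.02 ± 0.87 (limma adjusted p = 0.608), and its GFP-low replicate 2 was likewise not above background, at -4.38. No probe of Gnao1 separated the groups. In these samples 2 of 12 markers of neurons and neural crest were measured well enough to be tested, Tubb3 and Foxd3, and 6, among them Elavl4, Stmn2, Snap25 and Prph, were above background on no array. The summed linear level of the 12 was 2.16 to 3.72 in GFP-high and 2.17 to 4.75 in GFP-low.

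The RGS proteins shorten the inhibitory signal, and neither of the pair passed the test. Rgs6, which in the mouse sinoatrial node limits the vagal slowing of the heart and works as a dimer with the beta subunit Gnb5, had its highest values in GFP-high. It read -0.08, 2.00, -0.83 and 1.53 in GFP-high and -0.44, 0.22, -0.92 and -2.26 in GFP-low (probe at chr12:84259211-84259270). GFP-high replicates 2 and 4 were above every other array, GFP-high replicates 1 and 3 lay among the GFP-low arrays, and GFP-low replicate 4 was lowest. The difference was 1.51 ± 0.74 (95% interval -0.18 to 3.19), 2.84-fold (limma adjusted p = 0.384). It was 1.07 within slide 1 and 1.94 within slide 2, and 0.87 after normexp background correction.

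Rgs4, an RGS protein that acts on inhibitory G proteins in the sinoatrial node of the mouse, showed no separation of the groups. Its probe nearer the 3′ end, at chr1:171672548-171672607, read -0.17, 0.31, -1.20 and -0.48 in GFP-high and -0.58, -0.49, 0.30 and -0.56 in GFP-low. The range of GFP-high enclosed every GFP-low array, and the difference was -0.05 ± 0.37 (95% interval -0.90 to 0.80; limma adjusted p = 0.962). Its sign turned to 0.22 without GFP-high replicate 3 and to 0.16 without GFP-low replicate 3, and it was 0.61 within slide 1 and -0.71 within slide 2. The coding probe of Rgs4 printed above gave no signal well above background.

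The partners of Rgs6 in the vagal response are the beta subunit Gnb5 and the potassium channel subunits Kcnj3 and Kcnj5, which together form the channel that acetylcholine and adenosine open. Gnb5 was the beta or gamma subunit with the smallest p and Kcnj5 the effector with the smallest p, and Kcnj3 was chosen after its values were seen. Gnb5 read 0.69, 2.53, 1.22 and 1.72 in GFP-high and 0.41, 0.09, 0.81 and -1.22 in GFP-low, a difference of 1.52 ± 0.53 (limma adjusted p = 0.274). As in Rgs6, its highest arrays were GFP-high replicates 2 and 4 and its lowest was GFP-low replicate 4. The groups of Gnb5 overlapped, because GFP-high replicate 1 was below GFP-low replicate 3.

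The channel subunits had differences of opposite sign, neither past the test. Kcnj5 read -0.66, -0.05, -0.94 and 0.00 in GFP-high and -2.32, -0.98, -0.55 and -3.33 in GFP-low, and it was well above background on all 4 GFP-high arrays and 2 GFP-low arrays. Its difference was 1.38 ± 0.60 (limma adjusted p = 0.348). Kcnj3 read -2.10, -5.28, -3.68 and -0.70 in GFP-high and -1.63, -0.37, -1.73 and 1.02 in GFP-low, and it was well above background on 2 arrays of GFP-high and all 4 of GFP-low. Its difference was -2.26 ± 1.01 (limma adjusted p = 0.352), and a further probe of Kcnj3 was above background on no array. The spots not well above background were the lowest of each gene, GFP-low replicates 1 and 4 for Kcnj5 and GFP-high replicates 2 and 3 for Kcnj3. The size of both differences thus rests partly on such spots.

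**Figure D3:**
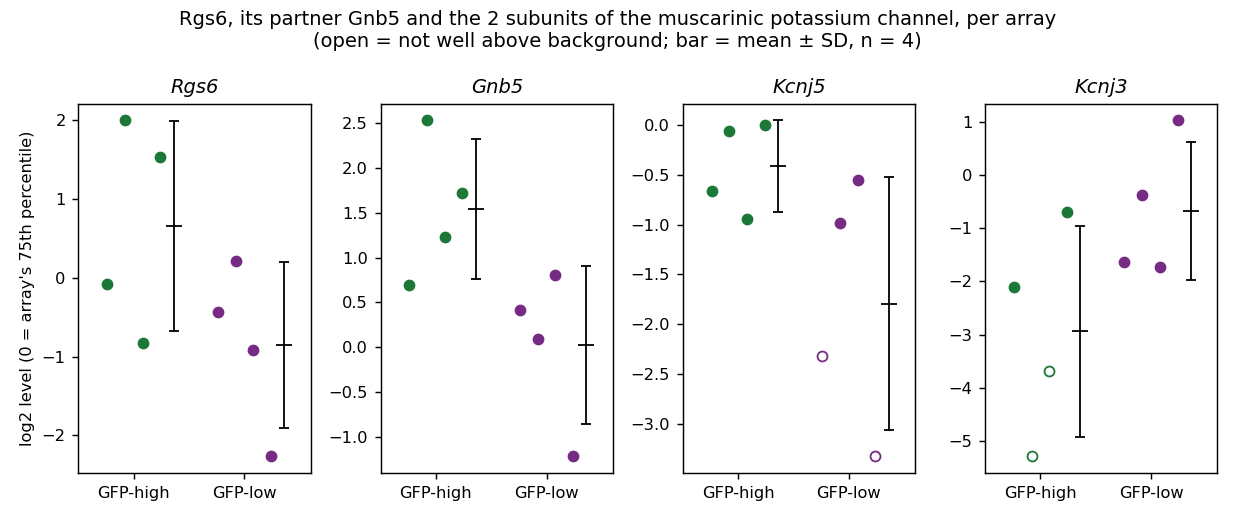
Level on each array of Rgs6, of its partner Gnb5 and of the potassium channel subunits Kcnj5 and Kcnj3 (log2, with 0 at the array's 75th percentile, own scale per panel); the bar is the mean ± SD of 4 arrays and open symbols are spots not well above background. The differences are 1.51, 1.52, 1.38 and -2.26 in that order, and the groups overlap in each panel.

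Of the adenylyl cyclases, which make cyclic AMP, types 5 and 6 are the main forms of heart muscle and both are restrained by inhibitory G proteins. Neither passed the test, and Adcy5 had the larger difference. Its brighter probe, the lower-case part of the line above, read -1.18, -1.07, 0.74 and -0.76 in GFP-high and -2.12, -1.03, -3.22 and -1.35 in GFP-low. It was well above background on all 4 GFP-high arrays but only on GFP-low replicates 2 and 4, and GFP-low replicate 2 was higher than GFP-high replicates 1 and 2. The difference was 1.36 ± 0.59 (95% interval 0.02 to 2.70), 2.57-fold (limma adjusted p = 0.345).

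The size of the Adcy5 difference changed with the slide and the background correction. It was 0.45 within slide 1 and 2.27 within slide 2, and 0.78 after normexp background correction. The abutting probe, in capitals above, read -1.21, -1.93, -0.87 and -1.66 in GFP-high and -2.71, -1.51, -3.51 and -0.89 in GFP-low. On it too GFP-low replicates 1 and 3 were not above background, and its difference was 0.74 ± 0.57 (limma adjusted p = 0.574). The genome interval that the files give for this probe is longer than the probe.

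Adcy6 showed no separation of the groups. It read 3.28, 2.73, 2.25 and 1.90 in GFP-high and 2.66, 1.99, 2.13 and 2.89 in GFP-low, with the groups interleaved, and the file places 15 bases of its probe at chr15:98420404-98420418. The difference was 0.13 ± 0.37 (95% interval -0.71 to 0.96; limma adjusted p = 0.885). It was 0.68 within slide 1 and -0.43 within slide 2, and it turned to -0.12 without GFP-high replicate 1, to -0.02 without GFP-low replicate 2 and to -0.02 after normexp background correction.

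The rest of the pathway was read from 139 further genes in 14 groups, of which 136 had a row and 93 were tested. None passed the test (limma), 9 had an unadjusted p under 0.05, and 2 had arrays that did not overlap, to be read against the 14.3% and 8.95% of all tested genes given above. Differences were positive for 57 and negative for 36, with a median of 0.15 beside 0.16 for all tested genes. The smallest adjusted p was 0.264, for Rgs12. Of the 136, 23 were above background on no array.

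**Figure D4:**
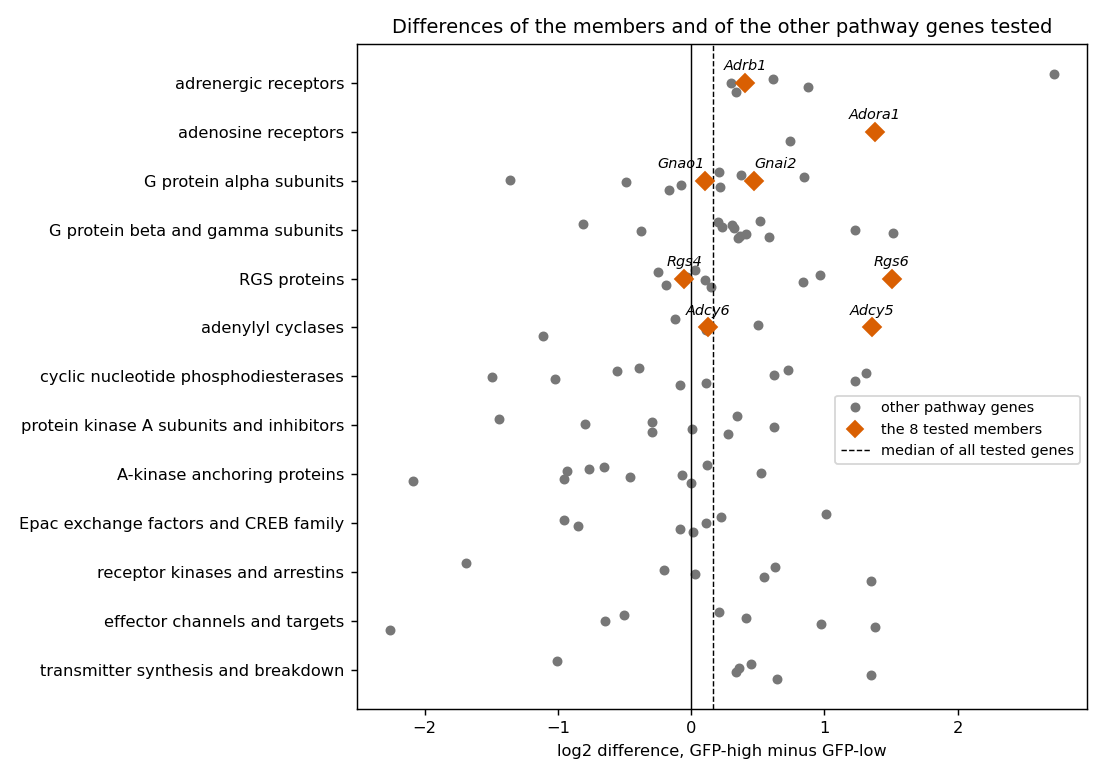
Difference of GFP-high minus GFP-low (log2) for each tested gene of the pathway, 1 line per group, with the 8 tested members as diamonds and the other 93 genes as circles; the dashed line is the median of all tested genes, 0.16. The circles lie on both sides of 0, 57 of them above it and 36 below, and no gene shown passed the test.

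On the stimulatory side, all 5 of the tested adrenergic receptors other than Adrb1 had positive differences, with a median of 0.61, and none passed. Adra1b, the alpha-1B receptor, read 3.77, 3.89, 2.93 and 3.24 in GFP-high and 3.01, 2.32, 2.62 and 2.35 in GFP-low, a difference of 0.88 ± 0.30 (limma adjusted p = 0.271). Its groups overlapped through GFP-low replicate 1. Of the adenosine receptors, Adora2a, which couples to the stimulatory G protein, was the 1 tested besides Adora1, with 0.74 ± 0.47 (limma adjusted p = 0.487) and overlapping groups.

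Among other G proteins, 4 alpha subunits had positive and 4 negative differences. Gna11, of the Gq class, had 0.85 ± 0.41 (limma adjusted p = 0.382), and Gnai1, an inhibitory subunit related to Gnai2, had -0.07 ± 0.25 (limma adjusted p = 0.906) at its brightest probe. Another probe of Gnai1 was lower on every GFP-high array than on all GFP-low arrays, with a difference of -1.45 ± 0.59 (limma adjusted p = 0.334 in the probe fit), and the remaining probes of Gnai1 had -0.21 and -0.06. The share of all tested probes without overlap is not given here. At the brightest probe it was 8.95% of tested genes, so a single such probe among many is not a result by itself. Of 13 tested beta and gamma subunits, 11 had positive differences, with a median of 0.35; Gnb1, a widely expressed beta subunit, had 0.35 ± 0.28 (limma adjusted p = 0.571).

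Of the other RGS proteins, 8 of 17 were tested, 5 with positive and 3 with negative differences. Rgs12 read 3.59, 3.94, 3.002 and 3.02 in GFP-high and 2.57, 2.71, 1.81 and 2.59 in GFP-low. All 4 GFP-high arrays were above all GFP-low arrays, with a difference of 0.97 ± 0.32 that did not pass (limma adjusted p = 0.264). Rgs10 had -0.03 ± 0.25 (limma adjusted p = 0.962).

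The steps that make and remove cyclic AMP were split in sign. Of the other cyclases, 2 had positive and 2 negative differences: Adcy1, known mainly from neurons, had -1.12 ± 0.46 (limma adjusted p = 0.330) with signal above background on 2 arrays of GFP-high and 3 of GFP-low, and Adcy3 had 0.50 ± 0.42 (limma adjusted p = 0.588), with -0.27 at its other probe. The phosphodiesterases, which break cyclic nucleotides down, had 5 positive and 5 negative differences, with a median of 0.02. Pde3a, a form of heart and smooth muscle, had -1.02 ± 0.55 (limma adjusted p = 0.418) with signal above background on 1 array of GFP-high and 3 of GFP-low. Another tested probe of Pde3a had 0.32, and Pde4a had 0.62 ± 0.46 (limma adjusted p = 0.544).

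Downstream, the protein kinase A subunits and inhibitors had 4 positive and 4 negative differences. Prkar2a, a regulatory subunit, had -0.79 ± 0.41 (limma adjusted p = 0.409) at its brightest probe. Further probes of Prkar2a had larger negative differences that did not pass either: -2.50 ± 0.51 (limma adjusted p = 0.141 in the probe fit), with every GFP-high array below all GFP-low arrays and signal above background on 2 arrays of GFP-high, and -1.47 ± 0.45 (limma adjusted p = 0.247). A remaining probe of Prkar2a was above background on no array. The separated probe of Prkar2a is subject to the same limit as that of Gnai1, because the share over all probes is not given. Pkig, an inhibitor peptide of the kinase, had 0.34 ± 0.24 (limma adjusted p = 0.527). The A-kinase anchoring proteins, which hold the kinase near its targets, had 7 negative differences of 10, with a median of -0.56. Akap12 read between 2.12 and 2.58 in GFP-high and between 2.53 and 3.59 in GFP-low, a difference of -0.65 ± 0.28 (limma adjusted p = 0.343). Akap8 had -0.07 ± 0.28 (limma adjusted p = 0.926). Of the exchange factors and CREB family, Crtc2, a CREB coactivator, had 1.01 ± 0.45 (limma adjusted p = 0.353) and Rapgef3, the cyclic AMP sensor Epac1, had 0.02 ± 0.60 (limma adjusted p = 0.993).

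The receptor kinases and arrestins, which switch activated receptors off, had 4 positive and 2 negative differences. Grk2, the main kinase of the beta receptors in heart, had 1.35 ± 0.52 (limma adjusted p = 0.313) at its brightest probe, whereas its other probes had -0.06 and -0.14. Arrb1, an arrestin, had 0.63 ± 0.35 (limma adjusted p = 0.425) at its brightest probe. Its other probe was higher on every GFP-high array than on all GFP-low arrays, of which 2 were above background, with 2.26 ± 0.74 (limma adjusted p = 0.265 in the probe fit). Tested secondary probes of Gnb4, Ddc, Grk6 and Gng5, named after their values were seen, were likewise higher on every GFP-high array. Those of Gnai1 and Prkar2a described above were lower. No share of all tested probes is given to set beside them. Among the effectors, 4 had positive and 3 negative differences. Ryr2, the calcium release channel phosphorylated by protein kinase A, had 0.42 ± 0.54 (limma adjusted p = 0.731), and another tested probe of Ryr2 had -0.10.

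The pacemaker channel genes, whose proteins bind cyclic AMP directly, are named here after their values were seen. Hcn4 had -0.65 ± 0.45 (limma adjusted p = 0.518). Hcn2 had 0.97 ± 0.56 (limma adjusted p = 0.446), and its GFP-high arrays were all above the GFP-low arrays, of which 3 were above background. That separation was narrow, with -1.26 on the lowest GFP-high array and -1.32 on the highest GFP-low array. GFP-low replicate 3, not above background, read -3.79, and the difference was 0.18 within slide 1 and 1.77 within slide 2. Arrays did not overlap for 8.95% of all tested genes. Of the genes that make or break down the transmitters, 6 of 13 were tested, 5 with positive differences. Pnmt, which makes adrenaline from noradrenaline, had 1.35 ± 0.69 (limma adjusted p = 0.397) with signal above background on all 4 arrays of GFP-high and 2 of GFP-low, and Maob had 0.45 ± 0.62 (limma adjusted p = 0.745).

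Markers of other cells in the sort were read beside these values. The summed linear level of 5 leukocyte markers was 10.8 to 15.2 in GFP-high and 3.53 to 5.78 in GFP-low, without overlap. Taken singly, 8.95% of all tested genes also had arrays that did not overlap. Lyz2 alone made up 82.8% to 95.1% of that sum. Without it the sum was 0.65 to 1.26 in GFP-high and 0.17 to 0.87 in GFP-low, with overlap. Such sums add the signal of different probes, so a share of a sum is not a share of RNA. Of the 5, Lyz2 and Cd68 were tested and neither passed, Lyz2 having 1.46 ± 0.24 (limma adjusted p = 0.0948) and Cd68 0.94 ± 0.68 (limma adjusted p = 0.535), while the leukocyte genes Ptprc and Csf1r were above background on no array and Fcer1g on 1 array of GFP-low. The sums of markers of heart muscle (2800 to 4354 against 1908 to 3450), epicardium (3.57 to 5.33 against 2.69 to 3.90), endothelium (1.04 to 4.65 against 1.43 to 5.02), erythroid cells (25.6 to 185 against 12.7 to 172), smooth muscle (199 to 336 against 120 to 310) and cushion mesenchyme (1.34 to 3.59 against 1.77 to 9.64) overlapped between GFP-high and GFP-low. Their part in the differences was not tested.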

How the data were processed

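RNA was measured on 8 one-colour Agilent arrays, 4 GFP-high and 4 GFP-low. The deposited files hold linear spot intensity. Per the submitters' processing notes the authors used Agilent Feature Extraction 10.5.1.1, and per the file headers it subtracted background and replaced the lowest values by surrogates (34.8% to 49.4% of the spots of an array). The authors' series table held the same intensities. No spot was saturated.

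From these, log2 of the processed signal was computed and scaled by subtracting the 75th percentile of the array's non-control spots, in R 4.3.3 with limma 3.58.1. The 1639 control spots of an array and outlier-flagged spots were left out. The probe with the highest mean stood for a gene, and testing required that 4 or more of the 8 arrays had it well above background (12875 of 27729 gene names, 46.4%; 14854 were left out). The groups were compared with lmFit and eBayes on group alone, with Benjamini-Hochberg adjustment over all tested genes; a second fit took every probe as a row. The number of arrays limits the precision. The fit was tested on simulated data.

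Replicates 1 and 2 of each group lay on slide 1, and replicates 3 and 4 on slide 2. Gene names were updated from RefSeq (GRCm38.p6, names only), which gave 33070 of 41174 probes a current symbol; coordinates are those of the files. Members and lists were chosen with earlier results of these data known. All members were named, and of each pathway group the tested gene with the smallest p and the one with the highest level; the 3 genes most like the member with the largest moderated t were named by correlation. Akap2, Crtc1 and Cacna1c were not analysed here. Values of a few other listed genes are not reported here. An exact permutation test planned for members measured in 1 group only was not needed. Alternatives changed scaling, background correction, filter, probe choice, source, blocks, slides and arrays left out.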

Additional observations from a re-analysis of the deposited data

Results flagged for a closer look

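A single array stood apart from the other 3 of its group in 2 of the 21 groups of member probe values that were tested, by a gap to its nearest neighbour that took up more of the group's range than Dixon's critical value for 4 samples allows. Chance flags about 1 in 20 such groups. In Adrb1, GFP-low replicate 2 had a level of -0.10 at the coding probe, against -0.88 to -0.77 on the other GFP-low arrays, and the gap took up 0.861 of the range. In Rgs4, GFP-low replicate 3 had a level of 0.30 at the probe nearer the 3′ end, against -0.58 to -0.49 on the other GFP-low arrays, and the gap took up 0.905 of the range.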

How the results depend on the processing

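Under all 22 alternatives 0 members and 0 other pathway genes passed the test, and 0 member probes did in those that keep probes apart (all except the mean over probes); the lowest limma adjusted p of a member was 0.144 (Adora1, slide as a block). Adora1, Rgs6, Adcy5, Adrb1 and Gnai2 kept a positive difference in every alternative that measured them, over 0.95 to 1.82, 0.87 to 2.00, 0.45 to 2.27, 0.16 to 0.59 and 0.30 to 0.65; Adcy5 had no value where a gene had to be above background on all 8 arrays. The sign turned for Adcy6 with normexp (-0.024) and within slide 2 (-0.43), for Rgs4 with the mean over probes (0.078) and within slide 1 (0.61), and for Gnao1 within slide 1 (-0.34). With each array left out in turn, Adcy6 ran from -0.12 to 0.34, Rgs4 from -0.28 to 0.22 and Gnao1 from -0.22 to 0.28. The causes were not tested. The 18 genes called over the whole array became 0 with median scaling, 9 with quantile normalization, 4 with the 75th percentile taken over spots above background on all arrays, 45 with a common floor, 3 with no filter on dim probes, 11 with the filter at all 8 arrays, 11 with slide as a block, 0 within either slide, and 0 to 7 with an array left out.

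The replicate numbers were not taken to pair the samples, because the labels do not say that they do. Deviations from the group means correlated at 0.114, 0.153, 0.303 and 0.065 for numbers 1 to 4. All of these were positive, and samples with the same number also shared a slide. With a replicate block, 0 members, 0 member probes and 0 other pathway genes passed, and 0 genes were called over the whole array; Adora1 had 1.38 with an adjusted p of 0.178. Depth on arrays is signal over background, and Chrm2 was not well above background on any of the 8 arrays and Adcy5 not on 2 of GFP-low.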
